A study of Mus musculus with 2 samples.

Results

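S-phase microglia, here brain macrophages picked by RNA of S-phase genes, numbered 444 of the 5696 barcodes in both libraries. There were 221 in the Hk2 fl/fl library and 223 in the Hk2 cKO library. They were selected on measured values of RNA, and DNA copying itself was not measured. A barcode in which 500 genes or more were detected and mitochondrial UMIs (unique molecular identifiers, 1 per captured RNA molecule) made up no more than 10% was first taken as a microglial cell when it held UMIs of at least 3 of P2ry12, Tmem119, Siglech and Fcrls. A member also held UMIs of at least 4 of 12 S-phase genes (Mcm2 to Mcm7, Rrm2, Tyms, Gins2, Cdc45, Uhrf1 and Dtl) and of at most 3 of 12 G2/M genes (Mki67, Top2a, Cdk1, Ccnb1, Ccna2, Birc5, Cenpf, Ube2c, Nusap1, Tpx2, Prc1 and Aurkb). The same counts define the sets used for comparison. Cells with both gene sets held at least 4 S genes and more than 3 G2/M genes. Mitotic cells held more than 3 G2/M genes and fewer than 4 S genes, and noncycling cells reached neither count. For these 28 genes every value below is a description of how the cells were picked.

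Both libraries came from C57BL/6 mouse brain on day 3 of microglial repopulation, sorted as CD11b high and CD45 low cells and profiled with the 10x Genomics 3' version 3 chemistry. The fl/fl library comes from mice whose Hk2 gene is floxed. The cKO library comes from mice with the same floxed gene that also carry Cx3cr1CreER, a tamoxifen-inducible Cre recombinase at the Cx3cr1 locus, which is active in microglia and in other macrophages and monocytes that use this promoter. The labels place tamoxifen after birth or as indicated, and do not say whether fl/fl mice received it, how microglia were depleted, how old the mice were at collection, how many were pooled, or which exons are floxed. Cre and loss of Hk2 therefore cannot be told apart. There is 1 library per genotype, so no difference below has a replicate check or a test. The 95% intervals given are exact ones, Clopper-Pearson for a share and Poisson for counts, and cover counting error only.

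After depletion, microglia refill the brain largely by division of cells that survived. Before S phase, the origin recognition complex, Cdc6 and Cdt1 load the Mcm2 to Mcm7 helicase onto DNA, and Cdc45 and the GINS complex switch it on. Polymerases held by the sliding clamp Pcna then copy the strands, while E2F transcription factors drive most of the genes for this machinery. Hk2 encodes hexokinase 2, which traps glucose in the cell as the first step of glycolysis.

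There were 3089 barcodes with 37476201 UMIs in the fl/fl library and 2607 with 32896996 UMIs in the cKO library, and 2 barcode sequences were common to both. The microglial gate kept 2520 and 2020 cells. Hk2 (chr6:82725025-82774454, minus strand) was at 179 CPM (UMIs per 1000000 of the summed UMIs) in fl/fl members and at 40.7 in cKO members, and at 179 and 51.5 CPM in noncycling cells. Its UMIs were found in 83.3% of fl/fl and 41.7% of cKO members. This follows the labels, with the limit that 3' tags outside a deleted exon do not measure the deletion. Cx3cr1, the fractalkine receptor whose locus carries the Cre, was at 1241 CPM in fl/fl and 612 in cKO members. The libraries also differ in a pair of near-identical sequences, mt-Nd3 of the mitochondrial genome and its nuclear pseudogene copy Gm28438 (chr1:24612775-24613119, minus strand), between which the authors' counting could split reads. In the fl/fl library 1262 gated cells had UMIs of mt-Nd3 alone and 488 of Gm28438 alone, while in the cKO library 4 cells had mt-Nd3 alone and 1745 had Gm28438 alone. The fl/fl library thus holds cells of both patterns and the cKO library nearly only one, so some values are also given by pattern.

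Members were RNA-rich cells. Their median was 13475 UMIs and 3780 genes in fl/fl and 17247 UMIs and 4277 genes in cKO, against 8526 UMIs and 2776.5 genes, and 10680 UMIs and 3185 genes, in noncycling cells. A rule that counts detected genes favours deep cells, and its part in this gap was not tested. The median mitochondrial share was 2.89% in fl/fl and 2.84% in cKO members, beside 2.91% and 2.77% in noncycling cells. All 4 microglial genes, which the rule used, fit the name of the set. Tmem119 was at 940 and 835 CPM, P2ry12, a purine receptor, at 602 and 583, Siglech at 757 and 738, and Fcrls at 424 and 380 in fl/fl and cKO members.

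Mcm5 had UMIs in 156 of 221 fl/fl members (70.6%) and 161 of 223 cKO members (72.2%), beside 7.29% and 6.61% of noncycling cells. Mcm6, another helicase subunit, was found in 70.6% and 82.5% of members and in 10.9% and 9.83% of noncycling cells. Tyms, which makes thymidylate for DNA, was found in 60.2% and 58.3%, and Gins2 of the GINS complex in 40.7% and 49.3%. Cells outside the gate with at least 3 of 5 neutrophil genes serve as the background. Of them 2 of 42 fl/fl and 2 of 60 cKO cells held a UMI of Mcm5, at median depths of 6832.5 and 8118.5 UMIs. The background depended on gene and cell class. Tyms was found in 2 of those 42 and 2 of those 60, and Pcna in 6 and 17. With at least 3 of 5 endothelial genes instead, Tyms was found in 2 of 14 fl/fl and 3 of 34 cKO cells, and Pcna in 5 and 14. None of those 42 and 60 cells met the S and G2/M limits, which allows a share of up to 7.14% and 5% when a count of 0 is taken to allow 3, and of up to 8.41% and 5.96% by Clopper-Pearson. At least 4 S genes were found in 2 of the 42 and 2 of the 60, which had more than 3 G2/M genes. Of the G2/M genes, Cdk1 was the most often found in members (41.6% and 47.1%), while Nusap1, a spindle protein, was found in 0.905% and 1.79%. Ube2c, a ubiquitin carrier of the anaphase complex, was no more frequent in members (33.0% and 30.9%) than in noncycling cells (37.4% and 32.4%).

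**Figure D1:**
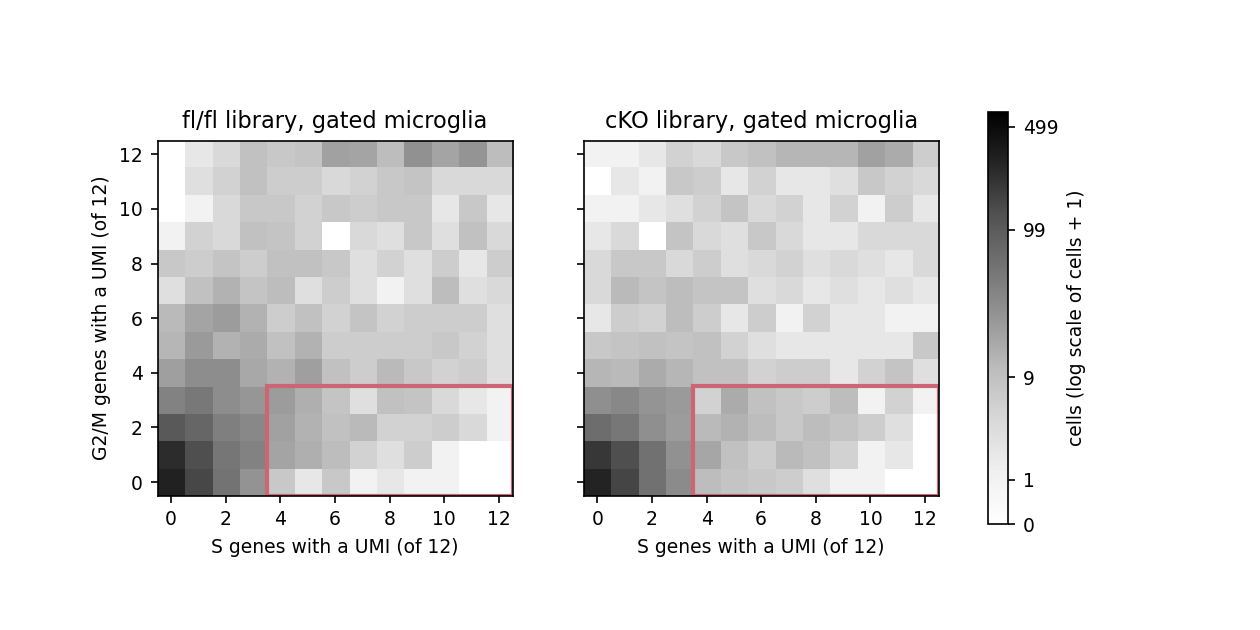
Number of gated microglia by the count of S genes (x axis, of 12) and G2/M genes (y axis, of 12) with a UMI, for each library. Grey shade is the number of cells on a log scale, and the red box holds the members, 221 fl/fl and 223 cKO cells, which pass without a gap into the cells around them.

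The plot of S against G2/M gene numbers shows a continuum, in which the limits cut through well-filled squares. Of the fl/fl members 65 had exactly 4 S genes and 70 had exactly 3 G2/M genes, and of the cKO members 43 and 59. Just inside the S limit, fl/fl cells with 4 S genes had Hells at 30.5 CPM and Pcna at 149, and just outside, 121 cells with 3 S genes had Hells at 16.6 and Pcna at 149. In the cKO library Hells was at 27.0 CPM just inside and 21.4 CPM just outside. At the other limit Hmgb2 was at 404 CPM in fl/fl members with 3 G2/M genes and at 394 CPM in the 80 cells with 4, and at 389 and 488 CPM in cKO cells.

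E2F factors are known to bind TTTCGCGC or TTTGGCGC, and the promoters of genes that mark the members were searched for both words on both strands, overlaps included, in the 250 bases before each RefSeq start (build GRCm38.p6). Of 27025 genes with a promoter in the table, 205 (0.759%) held a match. Among the 12 S genes of the rule 10 were matched and 4 held one: Mcm5, Mcm6, Dtl and Uhrf1. The counts were 1 of 13 for origin licensing genes (Orc1), 2 of 24 for replication fork genes (Pola1, Rfc3), 0 of 21 for nucleotide supply, 1 of 19 for chromatin assembly (Dnmt1), 4 of 23 for E2F and G1/S control (Cdc25a, Mycn, Rbl1, Tfdp1), and 0 of 17 and 0 of 23 for homeostatic and interferon genes. Lists unrelated to replication held matches too: 2 of 11 antigen presentation genes, 1 of 18 TCA cycle genes and 2 of 39 oxidative phosphorylation genes. Psmb9 and Tap1, the 2 antigen presentation genes, lie on opposite strands and their matches are the same site. Of 9 G2/M genes of the rule, 1 held a match (Cdk1). A match is only a run of letters, and a missing one says nothing of the factor. The 80 bases around a match are shown for 3 rule genes and for 2 genes outside the rule whose levels are given below, 5′ to 3′ on the gene's strand, with matches in capitals. They lie at chr8:75109340-75109419 (plus strand) for Mcm5, chr1:128359752-128359831 (minus) for Mcm6, chr17:56304112-56304191 (plus, at 1 of 2 starts) for Uhrf1, chr5:151651209-151651288 (minus) for Rfc3 and chr9:20952779-20952858 (minus, at 1 of 3 starts) for Dnmt1.
Mcm5: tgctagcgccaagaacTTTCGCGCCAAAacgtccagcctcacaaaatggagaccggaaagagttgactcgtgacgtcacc
Mcm6: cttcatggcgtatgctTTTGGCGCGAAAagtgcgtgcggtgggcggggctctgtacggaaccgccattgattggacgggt
Uhrf1: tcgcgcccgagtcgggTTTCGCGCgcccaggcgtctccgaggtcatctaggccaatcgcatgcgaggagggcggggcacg
Rfc3: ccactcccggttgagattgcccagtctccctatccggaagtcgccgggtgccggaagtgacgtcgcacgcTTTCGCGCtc
Dnmt1: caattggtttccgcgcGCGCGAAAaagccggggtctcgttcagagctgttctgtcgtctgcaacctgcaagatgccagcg
In Mcm5 and Mcm6 a match on each strand overlaps into one 12-base run. The pair in Mcm5 begins 153 bases before the start, the match in Rfc3 10 bases before it.

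Beyond the genes of the rule, replication genes were higher in members than in noncycling cells in both libraries. Since the rule sets members and noncycling cells apart by S genes, an excess of other replication genes is close to what it selects. Hells, a chromatin remodeller used in DNA methylation and replication (chr19:38930915-38971051, plus strand), was at 5.87 CPM in noncycling and 79.1 CPM in S-phase fl/fl cells, and at 6.59 and 71.8 CPM in cKO cells. Its log2 ratio was 3.54 (3.39 to 4.13) and 3.26 (3.1 to 3.80). Log2 ratios are taken after adding 1 CPM, which understates the difference of low genes, and their intervals are those of the ratio with nothing added. Lig1, the ligase that joins lagging-strand fragments, went from 13.4 to 71.4 CPM in fl/fl and from 11.5 to 73.2 CPM in cKO cells. Pcna, already present in noncycling cells at 126 and 124 CPM, was at 221 and 232 CPM in members, a log2 ratio of 0.81 (0.69 to 0.94) and 0.90 (0.79 to 1.02). A gene counts as measured at a mean of 20 CPM over the pair of sums, and as higher or lower at 1.5-fold. By this count 8.48% of 5734 measured genes were higher and 2.79% lower in fl/fl members, and 9.2% of 5686 higher and 5.43% lower in cKO members. The medians of all measured genes were 0.03 and 0.02.

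Of 17 origin licensing and firing genes outside the rule, 5 were measured in each library and Orc6, Cdt1, Gmnn and Gins4 were higher in both. A low gene can pass the filter through the S-phase sum alone, so the count over every member of a list is the fairer one: 16 of the 17 had a ratio above 0 in fl/fl (median 1.27) and 15 in cKO (median 1.11). Cdt1, the loader of the helicase, was at 7.43 CPM in noncycling and 39.4 CPM in S-phase fl/fl cells, and at 7.17 and 35.5 CPM in cKO cells. Gmnn, the inhibitor of Cdt1, was at 13.4 and 49.2 CPM in fl/fl, and at 11.2 and 53.6 CPM in cKO cells. Loader and inhibitor were thus both higher in the members. Cdc6, below the filter, was at 7.71 and 7.76 CPM in fl/fl and cKO members.

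All 30 replication fork genes outside the rule had ratios above 0 in each library, with medians of 1.74 in fl/fl and 1.57 in cKO. Of these, 14 were measured in fl/fl and 13 in cKO, and all of those were past 1.5-fold. The clamp loader subunit Rfc3 was at 14.2 CPM in noncycling and 55.7 in S-phase fl/fl cells, and at 15.6 and 44.9 in cKO cells. Rpa2, which coats single-stranded DNA, was at 7.13 and 43.3 CPM in fl/fl, and at 7.24 and 37.4 CPM in cKO. Prim1, the primase that starts each fragment, was at 3.34 and 25.5 CPM in fl/fl, and at 2.94 and 26.4 CPM in cKO. Tipin, which with Timeless steadies the fork, was at 13.7 and 67.3 CPM, and at 13 and 65.4 CPM.

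**Figure D2:**
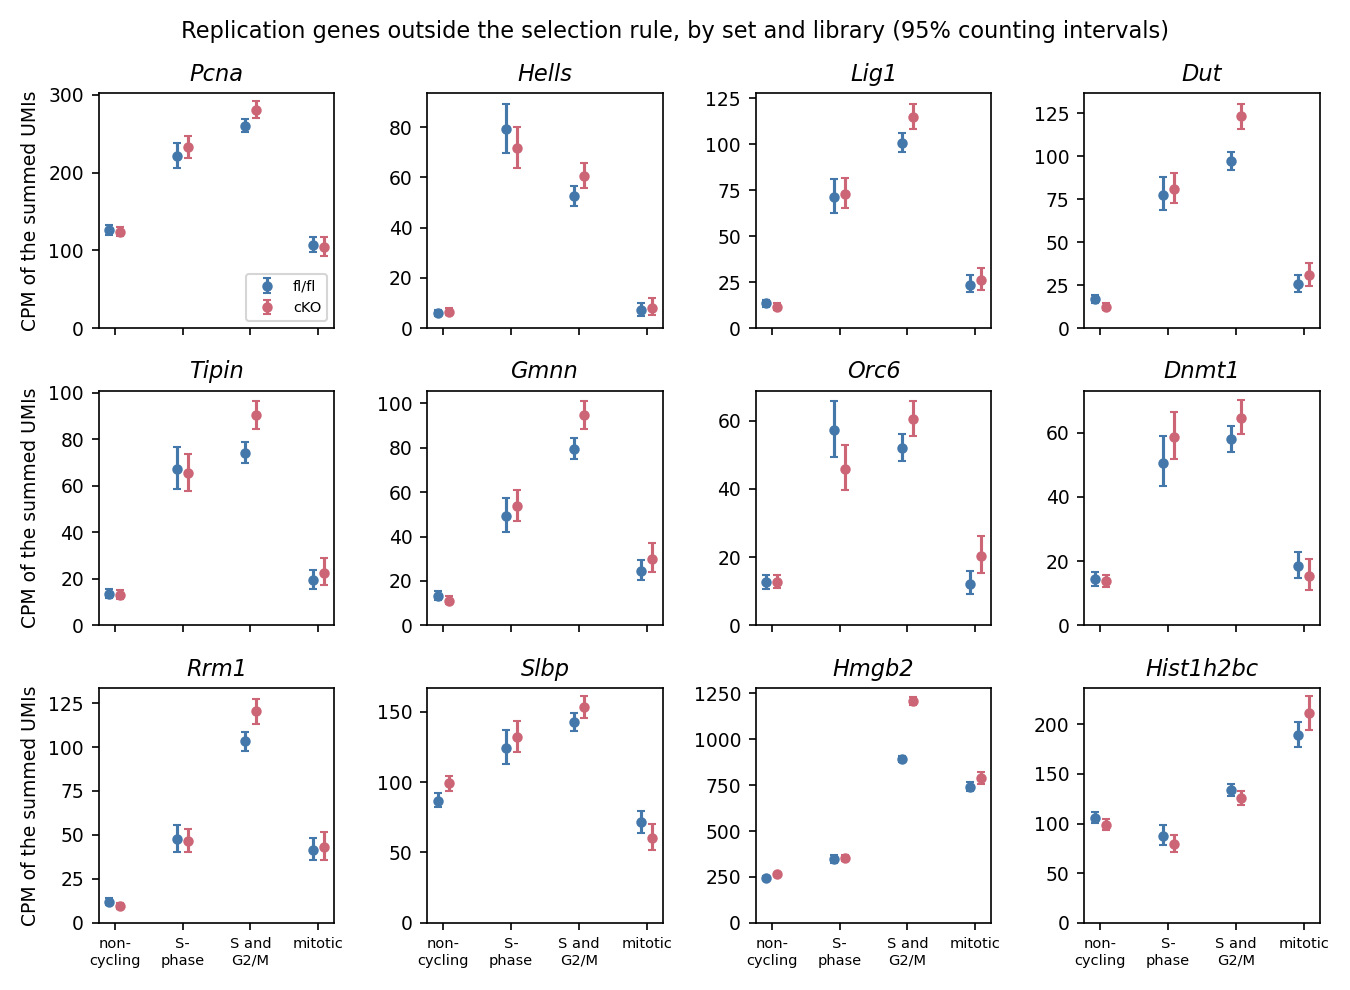
Level in CPM of the summed UMIs (y axis, from 0) of 12 replication and chromatin genes outside the rule in 4 sets of gated microglia (x axis), fl/fl in blue and cKO in red, with 95% Poisson intervals. Hells is highest in the S-phase set, Rrm1 and Lig1 in cells with both gene sets, and Hist1h2bc in mitotic cells.

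Genes that supply DNA precursors followed the fork genes. Of 24 outside the rule, 23 had ratios above 0 in each library (medians 1.21 and 1.01), and 15 of the 16 measured were past 1.5-fold. Dut, which removes dUTP before it can enter DNA, was at 16.6 CPM in noncycling and 77.7 in S-phase fl/fl cells, and at 12.5 and 80.9 in cKO cells. Rrm1, the large subunit of ribonucleotide reductase, was at 12.0 and 47.4 CPM in fl/fl, and at 9.32 and 46.4 CPM in cKO. Rrm1 was higher still in cells with both gene sets, at 103 and 120 CPM. The replication plot shows the same order for Lig1 and Hmgb2.

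Of 21 genes for chromatin assembly and DNA methylation, 21 had ratios above 0 in fl/fl and 20 in cKO, with medians of 0.97 and 0.71. Of 17 measured in each library, 10 and 7 were past 1.5-fold. Dnmt1, which copies methylation onto new strands, was at 14.3 CPM in noncycling and 50.7 in S-phase fl/fl cells, and at 13.8 and 58.8 in cKO cells. Chaf1a, the large subunit of the assembly factor that follows Pcna, was at 2.45 and 24.9 CPM in fl/fl, and at 1.94 and 22.6 CPM in cKO. Slbp, which binds the stem-loop of histone messages, was at 86.9 and 124 CPM in fl/fl, and at 99.1 and 132 CPM in cKO. Histone messages gave no common direction. Most replication-dependent histone messages lack the poly(A) tail by which this chemistry captures RNA, and only 2 of 25 were measured. Hist1h1c, a linker histone, was at 63.9 CPM in noncycling and 40.0 in S-phase fl/fl cells, and at 66.7 and 30.1 in cKO cells. Over all 25, 15 were above 0 in fl/fl and 7 in cKO, with medians of 0.25 and -0.14, and 5 and 2 were past 1.5-fold higher and 2 and 3 lower. The median of the measured histones was -0.46 in fl/fl and -0.72 in cKO, and 0.48 and -0.64 in thinned cells.

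Repair and checkpoint genes also ran high: 25 of 25 had ratios above 0 in fl/fl and 24 in cKO, with medians of 1.56 and 1.39 over all members. Only 4 and 3 were measured. Topbp1, which activates the ATR checkpoint kinase, was at 11.3 CPM in noncycling and 53.6 in S-phase fl/fl cells, and at 13.3 and 40.7 in cKO cells. Of 30 E2F and G1/S control genes, 23 and 25 were above 0, with medians of 0.62 and 0.68. Cyclin E, which with Cdk2 starts S phase, stood out at low levels: Ccne1 was at 1.78 and 19.3 CPM in fl/fl, and at 2.15 and 19.1 CPM in cKO. E2f1 was at 9.95 and 37.6 CPM in fl/fl, and at 9.82 and 34.8 CPM in cKO. Ccnd1, the cyclin of early G1, was at 140 and 250 CPM in fl/fl, and at 188 and 294 CPM in cKO. Cdkn1a, which encodes the cell cycle inhibitor p21, was lower as a share, at 705 and 489 CPM in fl/fl and 914 and 544 CPM in cKO. In UMIs per cell it was 6.85 and 7.46 in fl/fl, and 10.5 and 10.4 in cKO, since members hold more UMIs.

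Genes of cell growth were higher together with the replication genes. All 30 MYC target and ribosome biogenesis genes had ratios above 0 in each library, with medians of 0.83 and 0.67, and 17 of 27 measured in fl/fl and 16 of 26 in cKO were past 1.5-fold. Srm, which makes the polyamine spermidine, was at 27.7 CPM in noncycling and 94.0 in S-phase fl/fl cells, and at 26.9 and 86.3 in cKO cells. Ranbp1, a partner of the nuclear transport protein Ran, was at 110 and 309 CPM in fl/fl, and at 98.7 and 316 CPM in cKO. Myc itself was at 14.8 and 19.6 CPM in fl/fl, and at 12.4 and 19.1 CPM in cKO. All 27 proteasome genes were above 0 in each library, with medians of 0.47 and 0.53, of which 5 and 9 passed 1.5-fold.

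Cholesterol synthesis genes formed the next group. All 24 had ratios above 0 in each library (medians 0.86 and 0.94), and 13 of the 16 measured passed 1.5-fold in each. Sqle, which oxidises squalene, was at 13.8 CPM in noncycling and 43.6 in S-phase fl/fl cells, and at 14 and 46.6 in cKO cells. Fdps, which makes farnesyl diphosphate, was at 45.7 and 102 CPM in fl/fl, and at 45.5 and 135 CPM in cKO. Abca1, the pump that loads cholesterol onto apolipoproteins for export, ran the other way. It was at 75.7 and 32.6 CPM in fl/fl, and at 79.6 and 25.9 CPM in cKO, and it was lower per cell too, at 0.735 and 0.498 UMIs in fl/fl and 0.917 and 0.493 in cKO. Apoe, the main lipid carrier of the brain, was at 877 and 293 CPM in fl/fl, and at 1036 and 548 CPM in cKO, although 1 cell held 19.6% of its UMIs among fl/fl members and 1 cell 25.5% among cKO members. By pattern, Apoe was at 409 CPM in fl/fl members with mt-Nd3 alone, at 173 with Gm28438 alone and at 493 in cKO members with Gm28438 alone. Without cells in which another cell type's markers exceeded 0.5% of UMIs, its log2 ratio was -1.81 in fl/fl and -0.91 in cKO, beside -1.58 and -0.92 with them.

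In energy metabolism, glycolysis genes were higher and Hk2 was not. Of 21 glycolysis genes, 16 had ratios above 0 in fl/fl and 17 in cKO (medians 0.43 and 0.46), and 7 of 15 measured passed 1.5-fold in each. Ldha, which turns pyruvate to lactate, was at 260 CPM in noncycling and 480 in S-phase fl/fl cells, and at 264 and 540 in cKO cells. Eno1, the enolase step, was at 203 and 325 CPM in fl/fl, and at 253 and 411 CPM in cKO. For Hk2 the log2 ratio of S-phase to noncycling cells was 0.00 (-0.13 to 0.13) in fl/fl and -0.33 (-0.59 to -0.10) in cKO. Hk3 was at 44.3 and 55.4 CPM in fl/fl, and at 48.7 and 61.2 CPM in cKO. TCA cycle genes had medians of 0.24 and 0.33, and 3 of 21 passed 1.5-fold in each library (Idh3a, Idh2 and Fh1). Nuclear oxidative phosphorylation genes had medians of 0.22 and 0.37 over 50 genes, of which 3 passed 1.5-fold in fl/fl and 7 in cKO. None of the 7 pentose phosphate genes did, with medians of 0.22 and 0.36.

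**Figure D3:**
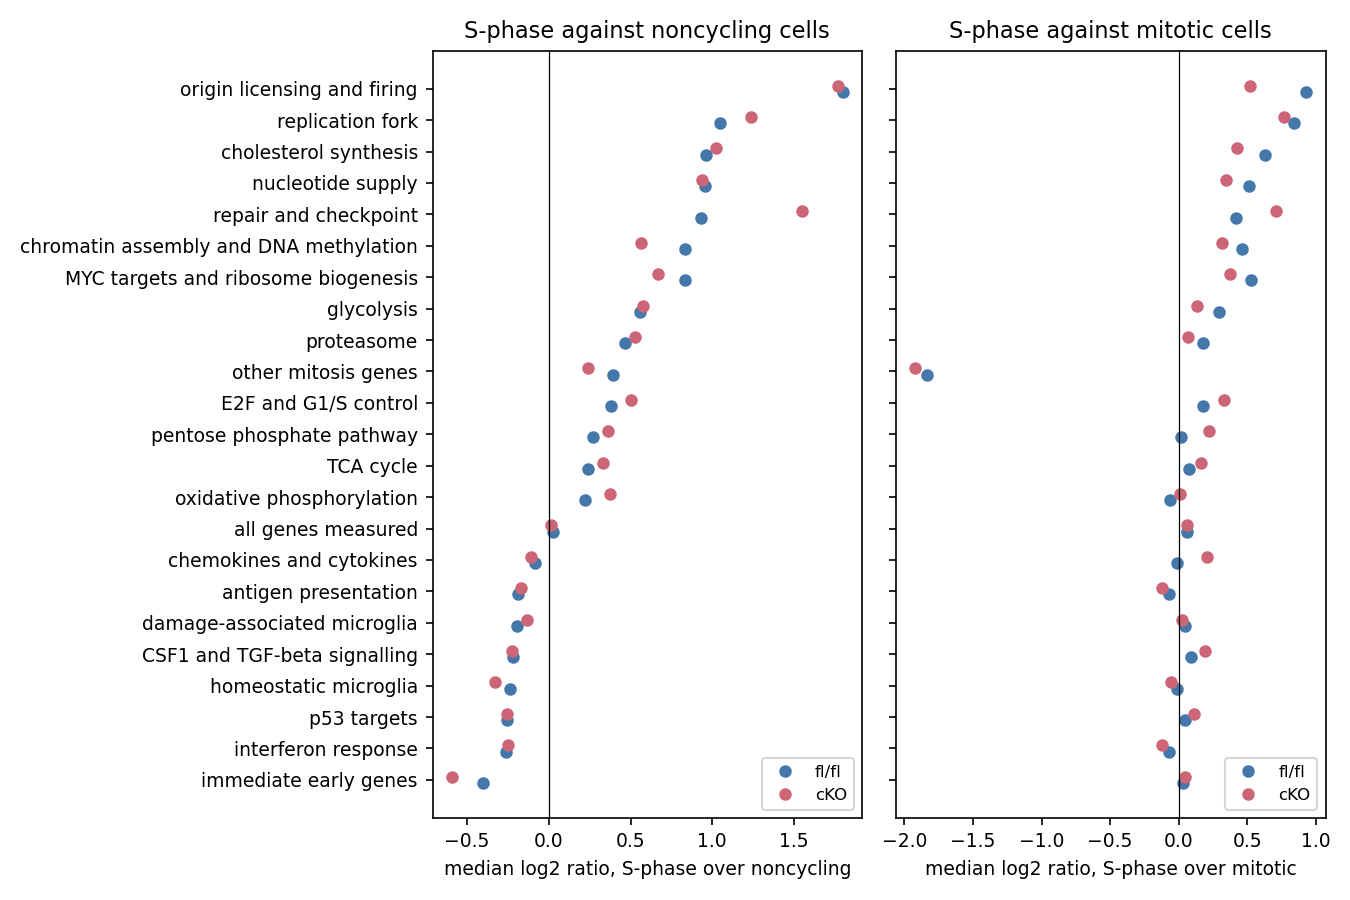
Median log2 ratio (x axis) of the measured genes of each list but one (y axis) for S-phase over noncycling cells, left, and S-phase over mitotic cells, right, fl/fl in blue and cKO in red. Replication-dependent histones are not drawn. Their medians in fl/fl and cKO were -0.46 and -0.72 against noncycling cells, and -1.10 and -1.40 against mitotic cells. Origin licensing, replication fork, nucleotide, cholesterol and MYC target lists lie to the right of 0 in both panels. So do the repair, chromatin assembly, E2F, glycolysis, proteasome, TCA cycle and pentose phosphate lists. All genes measured have medians of 0.03 and 0.02 on the left, and of 0.06 in each library on the right. A low gene can be measured through the S-phase sum alone. Mitosis genes lie far to the left against mitotic cells, with medians of -1.83 and -1.92.

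Most homeostatic, immediate early and interferon response genes took a smaller share of the members' RNA. Of 26 homeostatic genes, 23 had ratios below 0 in fl/fl and all 26 in cKO, with medians of -0.24 and -0.33. Past 1.5-fold lower were 2 of the 25 measured in fl/fl and 6 of the 26 in cKO, Cst3 in both libraries. Cst3, a secreted inhibitor of cathepsins, was at 13833 CPM in noncycling and 8354 in S-phase fl/fl cells, and at 13707 and 7880 in cKO cells. In UMIs per cell it was nearly level, at 134 and 128 in fl/fl and 158 and 150 in cKO. For Cst3 the share was thus lower in members while the captured UMIs per cell were close. Immediate early genes, which answer stress and stimulation within minutes, were below 0 in 20 of 21 in fl/fl and 21 of 21 in cKO (medians -0.41 and -0.58). Jun was at 1137 and 855 CPM in fl/fl, and at 1053 and 677 CPM in cKO. Interferon response genes were below 0 in 25 and 23 of 30 (medians -0.35 and -0.25), and damage-associated genes in 14 and 13 of 23 (medians -0.14 and -0.12). Other reaction lists were nearer to even. Chemokine and cytokine genes were below 0 in 10 and 13 of 20 (medians -0.08 and -0.18). Antigen presentation genes were below 0 in 9 and 10 of 17 (medians -0.14 and -0.16).

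Of 5532 genes measured in both libraries, 355 were higher in members than in noncycling cells in both, which is 78.2% of the 454 in fl/fl and 70.6% of the 503 in cKO. Lower in both were 109, 70.3% of 155 in fl/fl and 36.8% of 296 in cKO. No gene passed 1.5-fold in opposite directions. The highest ratios at a mean of 50 CPM included Tmpo, a nuclear lamina partner that the nucleotide supply list holds, and Dek, a chromatin protein in none of the lists. Tmpo was at 38.5 and 101 CPM in noncycling and S-phase fl/fl cells, and Dek at 143 and 314 CPM. Among the lowest was Ypel3, at 273 and 129 CPM in fl/fl, and at 225 and 104 CPM in cKO. The split of higher against lower genes in fl/fl depended on the scaling: it was 486 against 160 by total UMIs and 346 against 313 by TMM, which moved the median of all genes from 0.03 to -0.06. In cKO it was 523 against 309 and 480 against 341.

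Set against mitotic microglia, members kept more of the replication machinery and less of the division machinery. The rule sets at least 4 S genes for members and fewer for mitotic cells. A replication excess of this kind is therefore close to what it selects. Higher were 4.58% of 5704 measured genes in fl/fl and 4.08% of 5619 in cKO, and lower were 2.45% and 2.76%, with medians of all genes of 0.06 in each. By TMM the split in fl/fl turned from 261 higher and 140 lower to 149 and 188, and in cKO from 229 and 155 to 179 and 181. By mean CPM per cell the split in cKO was 440 and 184. Of 30 fork genes, 27 in fl/fl and 28 in cKO had ratios above 0, with medians of 0.95 and 0.87. Hells was at 79.1 CPM in S-phase and 7.09 in mitotic fl/fl cells, and at 71.8 and 8.01 in cKO cells. Dut was at 77.7 and 25.5 CPM in fl/fl, and at 80.9 and 30.6 CPM in cKO. Not all replication genes did so: Pclaf, a Pcna-binding factor, was at 63.4 CPM in S-phase and 118 in mitotic fl/fl cells, and at 44.5 and 135 in cKO cells.

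All 46 mitosis genes outside the rule had ratios below 0 against mitotic cells in each library, with medians of -2.30 and -2.63 over all members. Since the rule caps other G2/M genes, a deficit of this kind is close to what it selects. Cdc20, the activator of the anaphase complex, was at 5.33 CPM in members and 121 in mitotic cells of the fl/fl library. Cenpa, the centromeric histone, was at 40.3 and 295 CPM. Histone messages were also lower, with 23 of 25 below 0 in fl/fl and 20 in cKO. Hist1h2bc was at 87.7 CPM in S-phase and 189 in mitotic fl/fl cells, and at 79.3 and 211 in cKO cells. Hmgb2, a chromatin protein of dividing cells, was at 347 and 740 CPM in fl/fl, and at 354 and 787 CPM in cKO. The growth lists differed less than against noncycling cells: the medians over all members were 0.54 and 0.38 for MYC targets, 0.68 and 0.42 for cholesterol synthesis, and -0.02 and -0.06 for homeostatic genes. Of 5442 genes measured in both libraries, 107 were higher than in mitotic cells in both, 43.9% of 244 in fl/fl and 49.8% of 215 in cKO. Lower in both were 99, 76.7% of 129 and 68.3% of 145.

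Cells that met the rule at a common depth were not uniform. With each cell thinned to 5000 UMIs, 154 fl/fl and 127 cKO cells met it, of which 85 and 76 were members at full depth and 69 and 51 had both gene sets there. The values by bin therefore mix members with cells of that other set. Replication genes outside the rule summed to 7892 and 7800 CPM in them, beside 3524 and 3389 CPM in noncycling cells. By the number of S genes, the sum was 6270 and 6495 CPM in cells with 4, 7897 and 7867 with 5, 9560 and 8509 with 6, and 9776 and 9853 with 7 or more. The last bin holds 25 fl/fl and 19 cKO cells. By the number of G2/M genes the sum was also graded, from 5927 and 6289 CPM in cells with none to 9172 and 9308 CPM in cells with 3. Hmgb2 went from 447 CPM with none to 917 with 3 in fl/fl, and from 411 to 817 in cKO. Pclaf went from 73.3 to 393 CPM in fl/fl and from 33.3 to 233 in cKO. Cells with no G2/M gene, 30 fl/fl and 36 cKO cells at this depth, thus had the lowest replication sums of these bins. Their homeostatic genes summed to 51133 and 47939 CPM, beside 60380 and 64233 CPM in noncycling cells.

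Members made up 8.77% (7.69 to 9.94) of 2520 gated fl/fl microglia and 11.0% (9.71 to 12.5) of 2020 gated cKO microglia. Cells with both S and G2/M genes were 22.7% and 19.1%, mitotic cells 13.6% and 9.90%, and noncycling cells 55.0% and 60.0%. The higher share of members in cKO did not hold at matched depth. Applied to cells thinned to 5000 UMIs, of which 2164 fl/fl and 1736 cKO cells passed the gate, the rule gave 7.12% (6.07 to 8.28) and 7.32% (6.13 to 8.64). Over 5 draws the share ran from 7.05% to 7.44% in fl/fl and from 7.08% to 7.36% in cKO, with cKO higher in 4 of 5. At 8000 UMIs it was 11.4% and 9.96%, and at 2500 UMIs 3.36% and 3.40%. Thinning also changes who is a member: 118 of 203 and 122 of 198 members deep enough fell to noncycling.

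**Figure D4:**
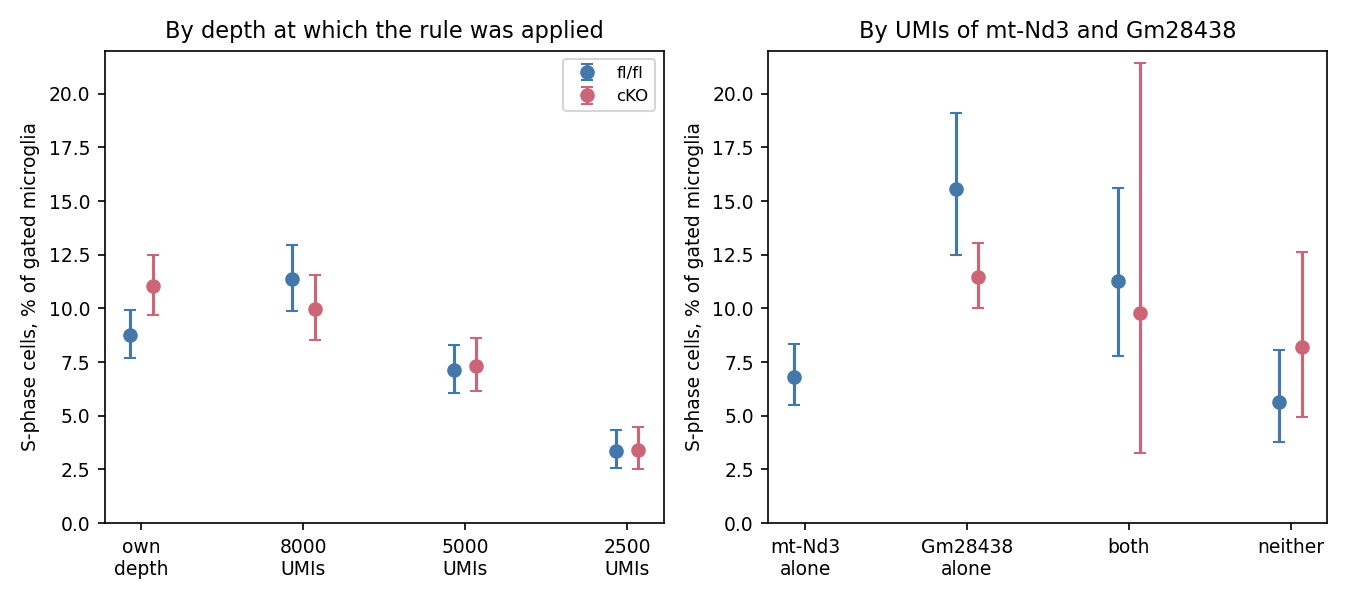
S-phase cells as a percent of gated microglia (y axis) in the fl/fl (blue) and cKO (red) library with 95% Clopper-Pearson intervals, by the depth at which the rule was applied, left, and by UMIs of mt-Nd3 and Gm28438, right. The order of the libraries turns with depth, and within fl/fl the cells with Gm28438 alone (15.6%) lie above those with mt-Nd3 alone (6.81%).

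The share differed more within the fl/fl library than between the libraries. Among fl/fl cells with mt-Nd3 alone 86 of 1262 were members (6.81%, 5.49 to 8.35), and among those with Gm28438 alone 76 of 488 (15.6%, 12.5 to 19.1), at median depths of 11331 and 11339 UMIs. Mitotic cells went the other way, at 15.5% and 11.3%. In the cKO library 200 of 1745 cells with Gm28438 alone were members (11.5%, 10.0 to 13), below the fl/fl cells of the same pattern. What the patterns stand for is not in the labels and was not tested. Genotype, library and this pattern cannot be told apart in the comparison of shares.

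Replication genes of the members had ratios near 0 between the libraries. In cKO against fl/fl members 1.46% of 5771 measured genes were higher and 0.866% were lower, and the median over all of them was -0.03. Of 30 fork genes 15 had ratios above 0 and 15 below, with a median of 0.01, and 1 of the 20 measured passed 1.5-fold (Clspn, lower in cKO). The ratio of Hells was -0.14 (-0.38 to 0.10), that of Lig1 0.03 (-0.21 to 0.28) and that of Pcna 0.07 (-0.07 to 0.21). Nucleotide supply genes had a median of -0.06 and cholesterol synthesis genes one of 0.10. Among cells with Gm28438 alone, the median of the measured fork genes was -0.40, that of nucleotide supply genes -0.28 (beside -0.06 for all members) and that of cholesterol synthesis genes -0.18 (beside 0.09). Hells was at 113 CPM in those cells, beside 65.4 CPM in fl/fl members with mt-Nd3 alone and 73.9 CPM in cKO members with Gm28438 alone.

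The gene with the lowest ratio among glycolysis genes was Hk2, at -2.11 (-2.39 to -1.89) in members and -1.78 (-1.92 to -1.68) in noncycling cells. No other member of that list passed 1.5-fold, and the list's median was 0.09. Over its measured genes the median was 0.08, and -0.02 among cells with Gm28438 alone. Hk2 was at 190 CPM in fl/fl members with mt-Nd3 alone, at 164 with Gm28438 alone and at 40.5 in cKO members with Gm28438 alone. Both fl/fl patterns were thus at the fl/fl level of Hk2. Oxidative phosphorylation genes leaned higher in cKO members, with 36 of 50 above 0 and a median of 0.10, and lower in cKO noncycling cells, with 14 of 50 above 0 and a median of -0.06. None of them passed 1.5-fold in either.

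Interferon response genes were the list with the highest median in cKO members. All 30 were above 0, with a median of 1.20, and 21 of the 22 measured passed 1.5-fold. Isg15, a ubiquitin-like protein, was at 19.9 CPM in fl/fl and 95.1 in cKO members, a log2 ratio of 2.20 (1.88 to 2.65). Irf7, the factor that amplifies type I interferon, was at 15.7 and 68.5 CPM, Ifi27l2a at 1397 and 2852 CPM, and Bst2, which tethers enveloped viruses, at 328 and 764 CPM. Noncycling cells had it too: among them, where 1.43% of 5581 genes were higher and 0.52% lower, all 30 were again above 0 with a median of 1.16, and Isg15 had a ratio of 2.03. Within fl/fl, Isg15 was at 9.85 CPM in members with mt-Nd3 alone and 27.3 with Gm28438 alone, and Ifi27l2a at 1471 and 1270 CPM. Against the cells with Gm28438 alone the median of the measured interferon genes was 1.16. The class I gene H2-K1 was at 672 and 874 CPM, and B2m, its light chain, at 1671 and 2189 CPM.

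**Figure D5:**
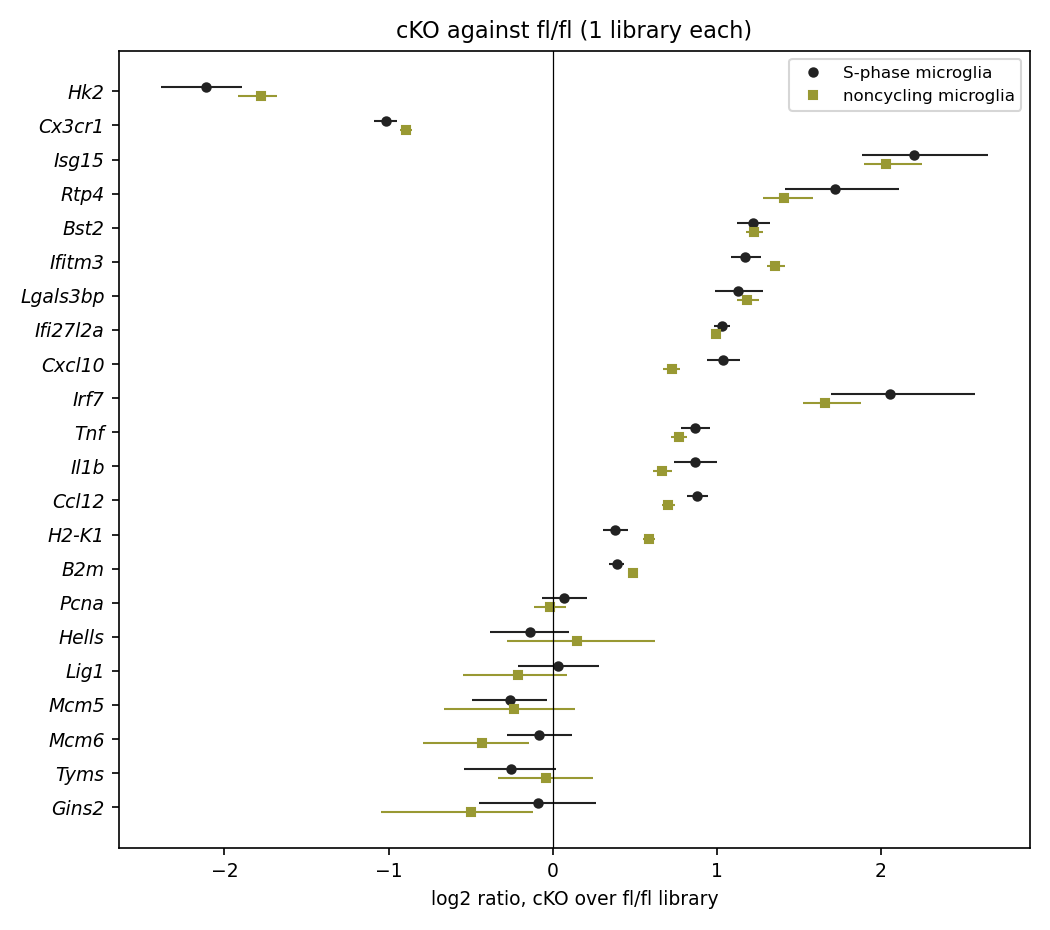
Log2 ratio of cKO over fl/fl (x axis, 1 CPM added, 1 library each) for 22 genes (y axis) in S-phase microglia (black circles) and noncycling microglia (olive squares), with 95% counting intervals of the ratio as lines. Hk2 and Cx3cr1 lie to the left, interferon and cytokine genes to the right, and the replication genes of members near 0.

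Of 20 chemokine and cytokine genes, 15 were above 0 in cKO members (median 0.31), and Ccl2, Ccl4, Ccl7, Ccl12, Tnf and Il1b passed 1.5-fold. Tnf was at 445 CPM in fl/fl and 812 in cKO members, and Ccl12, a chemokine for monocytes, at 818 and 1507 CPM. For Il1b the fl/fl value depended on the pattern: it was 133 CPM in members with mt-Nd3 alone and 291 with Gm28438 alone, beside 393 in cKO members with Gm28438 alone. Ccl12 likewise was at 651, 1115 and 1516 CPM. The list's median against fl/fl cells with Gm28438 alone was 0.10. Past 1.5-fold lower in cKO members were Lsp1, a leukocyte actin-binding protein, at 187 and 108 CPM, and the immediate early gene Dusp1, at 206 and 132 CPM. Of the 21 immediate early genes 14 were below 0 and 7 above, with a median of -0.12, and Egr2 was past 1.5-fold higher, at 18.1 and 46.4 CPM. The median of the measured ones was -0.13, and 0.080 among cells with Gm28438 alone. The split of higher against lower genes between the libraries turned with the processing: it was 84 against 50 by total UMIs, 97 against 32 by TMM and 92 against 82 by mean CPM per cell, but 308 against 447 in thinned cells and 163 against 232 among cells with Gm28438 alone.

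A few members carried RNA of other cell types. Markers of another class exceeded 0.5% of UMIs in 8 of 221 fl/fl and 7 of 223 cKO members, and in 48 and 37 noncycling cells. The 12 neutrophil markers summed to 718 CPM in fl/fl and 2039 in cKO members (Ly6g at 0 in fl/fl), beside 2658 and 4201 CPM in noncycling and 6652 and 6480 CPM in mitotic cells. The 10 endothelial markers summed to 723 and 822 CPM, the 10 monocyte markers to 118 and 142, and the 10 border macrophage markers to 39.1 and 22.1, with Cd209f at 0 in both. Of 10 lymphocyte markers 7 and 6 were at 0, Cd3e among them. Several large ratios rest on such cells. Ctsk, an osteoclast protease, had 99.3% of its UMIs in 1 cKO member, and its cKO to fl/fl log2 ratio was 6.34 with those cells and -0.0154 without them. S100a8, a neutrophil protein, had 91.9% and 69.9% of its UMIs in 1 cell of each library, and its ratio was 1.45 with and -0.35 without them. S100a9 gave 1.51 and -0.38, and Ngp 3.58 and 0.39. Class II genes also lay in few cells, with H2-Aa at 100% of its cKO UMIs in 1 member and H2-Eb1 at 160 of 166. The limit of 0.5% also counted class II markers, which 5 fl/fl and 1 cKO members exceeded. For class II genes the filter thus removed cells by the genes whose ratios are given. Cd74, the class II chaperone, had -1.31 with and -0.70 without those cells, and H2-Ab1 -1.11 and -0.36. H2-Aa had -2.39 and -3.65, and H2-Eb1 -1.45 and -2.05. Since 1 member held nearly all cKO UMIs of these 2 genes, their values without those cells lie near the floor set by the added 1 CPM.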

How the data were processed

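The authors deposited raw UMI counts per gene and barcode for each library, with no normalization. Per the submitters' processing notes, the counts come from bcl2fastq and Cell Ranger 3.1.0 on GRCm38. Which annotation was counted is not given in the sources here. Gene coordinates were taken from GENCODE vM21 and promoters from RefSeq. Where identifiers shared a symbol, the one with most counts stood for it.

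The genotype came from the sample labels. Counts were summed per library and set of cells (3374026 and 4250195 UMIs in S-phase cells, 13464639 and 13952250 in noncycling cells) and divided by their total to CPM. Log2 ratios used 1 CPM added, a minimum mean of 20 CPM per gene, and a fold of 1.5. Scrublet in scanpy 1.11.5 marked only 2 and 1 cells (0.0708% and 0.0435%), so doublets may remain, and their number was not measured. An alternative removed the highest scores at 0.8% per 1000 cells, 64 and 42 barcodes, of which 6 and 7 were members.

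The members, the gene lists and the marker lists were chosen with earlier results of these data known. The rule for named genes took the genes of the rule, Cx3cr1, Hk2, Hk1 and Hk3, the extreme ratios among genes at a mean of 50 CPM, the extreme and most abundant members of each list, and measured replication genes. Genes compared between the mt-Nd3 and Gm28438 patterns, the words searched in promoters, Myc, and Cdc6, Ccne1, Chaf1a and Prim1 below the filter were named after their values were seen. Other scalings, filters, folds, gates and depths were tried. The steps were tested on simulated data. Tables used pandas 2.3.3, figures matplotlib 3.10.9, intervals scipy 1.17.1 and arrays numpy 2.4.6, under Python 3.11.15, and TMM scaling in edgeR 4.0.16 (R 4.3.3).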

Additional observations from a re-analysis of the deposited data

Results flagged for a closer look

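Barcodes that the comparisons leave out also met the limits for S and G2/M genes. Among kept barcodes with UMIs of 2 or fewer of the 4 microglial genes, 13 of 306 did so in fl/fl (4.25%) and 14 of 281 in cKO (4.98%), at median depths of 5033 and 5347 UMIs. Among barcodes that failed the gene or mitochondrial limit, 3 of 263 did so in fl/fl (1.14%) and 4 of 306 in cKO (1.31%). Their median depths were 1010 and 999 UMIs. For comparison, 0 of 42 fl/fl and 0 of 60 cKO cells with neutrophil genes did so, and 0 of 14 and 0 of 34 cells with endothelial genes. What these barcodes are was not tested.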

How the results depend on the processing

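With 1 library per genotype, leaving out a library leaves no comparison. No paired analysis was possible because each genotype has 1 library. Leaving out cells over 0.5% of another class's markers, thinning to 2500 and 8000 UMIs and repeated draws at 5000 UMIs were chosen after seeing the data. The filter at a mean of 20 CPM leaves out low genes. Of 30 fork genes, 20 were measured between the S-phase sums of the libraries and 4 between the noncycling sums. The noncycling sums hold more UMIs, so these counts do not follow the depth of the sums. Of values for single genes under an alternative, 1460 stayed within the interval or direction, 275 moved and 29 reversed; of list medians, 2086, 112 and 4. The causes were not tested.

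The share of S-phase cells was 13.6% in fl/fl and 16% in cKO with at least 3 S genes, 6.19% and 8.91% with at least 5, 5.99% and 8.12% with at most 2 G2/M genes, and 11.9% and 13.7% with at most 4. Thinned to 5000 UMIs it was 7.12% and 7.32%, with cKO higher by 0.199 percentage points, beside 2.27 at full depth. At 2500 UMIs it was 3.36% and 3.40%, a difference of 0.0366, and at 8000 UMIs 11.4% in fl/fl, a difference of -1.39. Among cells with Gm28438 alone it was 15.6% in fl/fl, a difference of -4.11.

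Counts of genes past 1.5-fold are given as higher and lower. For S-phase against noncycling, they were 486 and 160 in fl/fl and 523 and 309 in cKO. They became 789 and 465, and 824 and 641, in thinned cells; 190 and 57, and 234 and 142, at a mean of 50 CPM; 1190 and 770, and 1266 and 1026, at 5/4-fold; and 114 and 24, and 120 and 34, at 2-fold. In fl/fl alone they were 734 and 273 at a mean of 10 CPM, and the lower count was 261 with at most 2 G2/M genes, 342 among cells with Gm28438 alone, 313 with TMM and 332 by mean CPM per cell. For S-phase against mitotic, they were 261 and 140 in fl/fl and 229 and 155 in cKO. They became 548 and 362, and 720 and 444, in thinned cells; 88 and 53, and 53 and 64, at 50 CPM; 520 and 248, and 469 and 260, at 10 CPM; 978 and 370, and 962 and 429, at 5/4-fold; and 40 and 68, and 52 and 72, at 2-fold. In fl/fl they were 566 and 392 among cells with Gm28438 alone, and 149 were higher with TMM; in cKO 440 were higher by mean CPM per cell. For cKO against fl/fl members, they were 84 and 50, and became 308 and 447 in thinned cells, 163 and 232 among cells with Gm28438 alone, 152 and 139 at 10 CPM, 41 and 13 at 50 CPM, 293 and 445 at 5/4-fold, and 28 and 9 at 2-fold. The lower count was 85 with at least 5 S genes, 96 with at most 2 G2/M genes, 32 with TMM, 82 by mean CPM per cell and 30 with 5 CPM added.

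Most reversed values were of genes that single cells carry. For S-phase against noncycling in cKO with at least 3 S genes, Camp had a log2 ratio of 0.0847, S100a8 0.12 and S100a9 0.12. With at least 5 S genes, the cKO to fl/fl ratio was -0.65 for Ngp, -0.46 for S100a8 and -0.42 for S100a9. Ctsk had -0.51 with at most 2 G2/M genes and -0.0135 with all 4 microglial genes. Thinned, the fl/fl S-phase to noncycling ratio was 2.26 for Camp, 1.21 for S100a8, 1.37 for S100a9 and 0.48 for the histone median. Thinned against mitotic cells, S100a8 had 0.17 and S100a9 0.38 in fl/fl, and the homeostatic median was 0.00913 in cKO. Thinned, the cKO to fl/fl ratio was 0.17 for Adamts1, 0.27 for Ddit3, 0.16 for H2-Eb1, -6.11 for Ngp, -6.31 for S100a8 and -6.69 for S100a9. Among cells with Gm28438 alone, the immediate early median of cKO to fl/fl was 0.080, and against mitotic fl/fl cells Chil3 had 1.01, S100a8 1.34 and S100a9 1.88. By mean CPM per cell the immediate early median in noncycling cells was -0.0302. Without cells over 0.5% of another class's markers, S-phase against noncycling gave 0.18 and 0.19 for Camp in fl/fl and cKO; against mitotic, Chil3 had 2.51 in fl/fl and S100a8 0.28 in cKO; and cKO to fl/fl was -0.0154 for Ctsk, -0.35 for S100a8 and -0.38 for S100a9.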
